A study of Homo sapiens with 6 samples.

Results

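The 10 genes described here are those of the BCL2 family best known for controlling mitochondrial apoptosis, and they were taken by symbol from the 19330 genes of the count table. They comprise the anti-apoptotic genes BCL2, BCL2L1 and MCL1, the effector genes BAX and BAK1, and the BH3-only genes BID, BAD, BBC3, PMAIP1 and BCL2L11. RNA-Seq was performed in K562, an established human chronic myelogenous leukemia line, after lentiviral delivery of pLentiCRISPRv2, which encodes Cas9 and an sgRNA. Control cells (sgCtrl, n = 3 libraries) carried sgRNAs against OR11A1 and OR2M49, as the labels spell them, and N6AMT1-depleted cells (sgN6AMT1, n = 3 libraries) carried sgRNAs against N6AMT1, a methyltransferase gene. All cells were selected with puromycin for 48 h and analyzed at day 10 after infection as transduced populations, not clones, and the sgRNA that each library received was not given in the sources used here.

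Proteins of the BCL2 family decide whether the outer membrane of mitochondria stays intact. The effectors BAX and BAK1 form pores in that membrane, through which cytochrome c escapes to activate caspases, while the anti-apoptotic proteins hold the effectors and the BH3-only proteins in check. The BH3-only proteins carry a single BCL2 homology region, the BH3 domain, which docks into the groove of the anti-apoptotic proteins or activates the effectors. K562 cells depend on the BCR-ABL1 kinase, which signals through STAT5 to BCL2L1 and MCL1, and they lack functional p53, the factor that otherwise drives BAX, BBC3 and PMAIP1. Many of these proteins are controlled by phosphorylation and degradation, which counts of RNA do not measure.

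The stretches of coding sequence below, read from GENCODE v44 transcripts on GRCh38, show what the classes share, with the BH3 core of the genes on which the results turn. Each runs 5′ to 3′ over 24 bases. Capitals mark the codon of the leucine that opens the core and the 2 codons that close it, which encode a small residue and aspartate.
MCL1: accTTAcgacgggttGGGGATggc
BCL2L1: gcgCTGagggaggcaGGCGACgag
BAX: tgtCTCaagcgcatcGGGGACgaa
BAK1: cagCTCgccatcatcGGGGACgac
BAD: gagCTCcggaggatgAGTGACgag
PMAIP1: caaCTCaggagatttGGAGACaaa
BCL2L11: gagTTGcggcgtattGGAGACgag
The core was found by the pattern leucine, any 3 residues, glycine, alanine or serine, then aspartate, which also matched a second place in BID. All 10 genes hold a match, those called higher, those called lower and those not called alike. The opening codon was CTC in BAX, BAK1, BAD and PMAIP1, CTG in BCL2L1, and TTA or TTG in MCL1 and BCL2L11.

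Depth set what could be seen. Total counts were 742470 to 866894 in the sgCtrl libraries and 959319, 5526904 and 4062363 in sgN6AMT1 replicates 1 to 3, so a count of 0 allowed 0.543 to 4.04 cpm (counts divided by the library total, scaled to a common total) depending on the library. Values are given as TMM-normalized cpm, called normalized counts here. Reads of the targeted gene N6AMT1 numbered 6, 5 and 9 in the control libraries and 0, 18 and 16 in the depleted ones, or 8.06, 5.77 and 10.6 against 0, 3.29 and 4.11 normalized counts. The conditions did not overlap for the target, which was too low for the filter on low counts and was not tested. The cells carried counts of 10 of 10 K562 markers, mostly erythroid genes, in every library, and 6 of 8 markers of HeLa or human embryonic kidney cells, among them CDKN2A and MTAP, were at 0 in all 6 libraries. Of the K562 markers HBG1, HBG2 and HBE1, which encode globins, were higher at log2 fold changes of 1.04, 1.05 and 0.89 (edgeR adjusted p = 0.0149, 0.0144 and 0.00414), and LMO2 was lower at -1.01 (edgeR adjusted p = 0.0239). The markers together took 1.17 to 1.85% of counts in sgCtrl and 1.88 to 3.41% in sgN6AMT1, and the part of that difference in the values below was not tested.

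Among the 10 genes, the largest changes were those of single BH3-only genes and ran in both directions, both effectors were higher by point estimate, and the anti-apoptotic genes with enough counts changed little. Without a filter on low counts, PMAIP1 and BAD were higher and BCL2L11 was lower in N6AMT1-depleted cells by edgeR's quasi-likelihood test with Benjamini-Hochberg adjustment. These were 3 of 10 members, where 8.66% of all genes fitted that way were differentially expressed. After the filter 6 members remained, of which 1, BAD, was differentially expressed, against 9.85% of the 8324 genes tested in either direction, 5.09% higher and 4.76% lower. BAD passed that filter only through its sgN6AMT1 libraries, so its call stands as a description. DESeq2 called 2 members, PMAIP1 and BCL2L11, against 6.4% of genes. BCL2 itself and the BH3-only gene BBC3 were too low to follow. In bulk RNA, fewer cells that express a gene and less RNA per cell cannot be told apart.

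**Figure D1:**
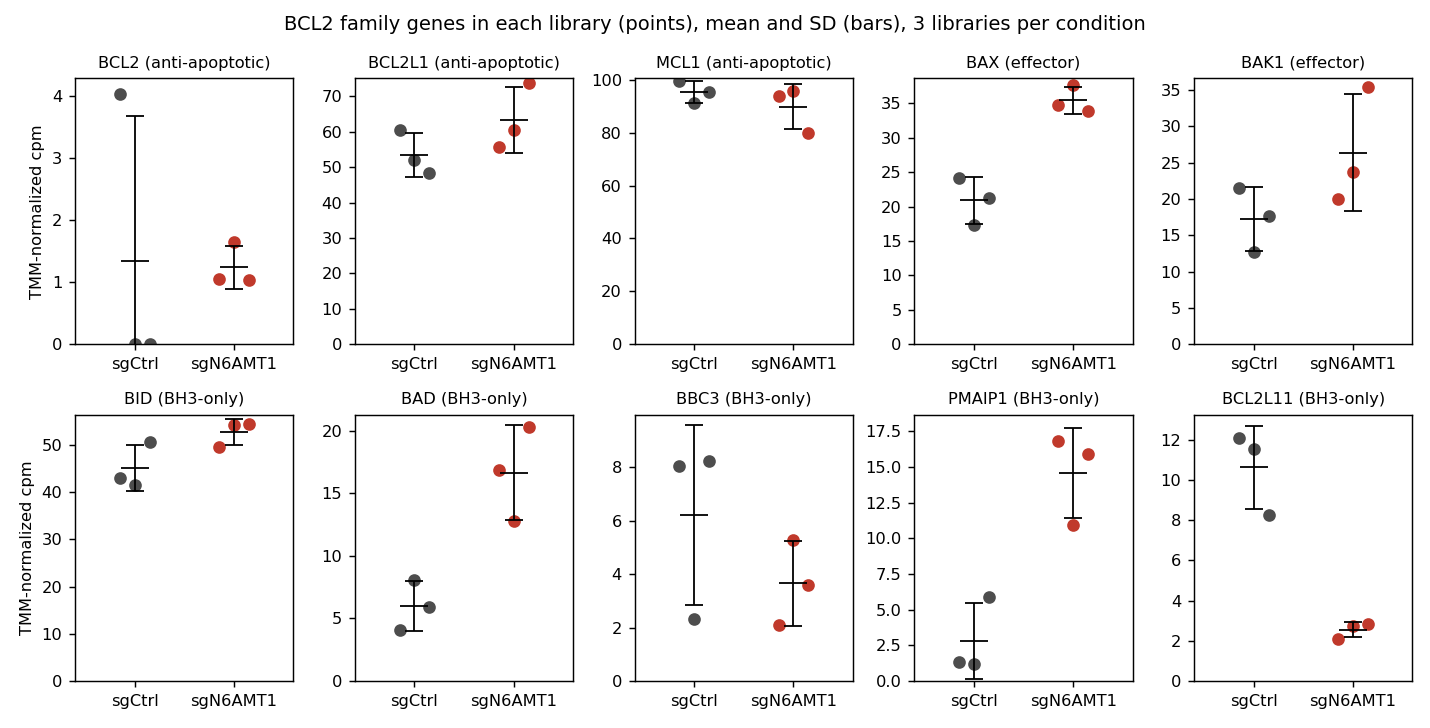
TMM-normalized cpm of the 10 BCL2 family genes in the 3 sgCtrl and 3 sgN6AMT1 libraries, each panel with its own axis from 0. Points are libraries and bars the mean and SD, clipped at 0 for BCL2. BAX, BAD and PMAIP1 were higher and BCL2L11 lower in all sgN6AMT1 libraries than in any sgCtrl library.

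PMAIP1 encodes NOXA, a short BH3-only protein that binds MCL1 and speeds its degradation. It had 1.34, 1.15 and 5.89 normalized counts in the sgCtrl libraries and 16.9, 10.95 and 15.9 in sgN6AMT1, from 1, 1 and 5 against 16, 60 and 62 reads. Every sgN6AMT1 library lay above every sgCtrl library, including sgN6AMT1 replicate 1, whose depth was close to that of the controls. In the fit without a filter the log2 fold change of PMAIP1 was 2.28 (SE 0.56, edgeR adjusted p = 0.00173). With a filter that ignores the condition, a mean of at least 3 cpm over the 6 libraries, it was 2.27 (edgeR adjusted p = 0.0159), and with DESeq2 it was 2.32 (DESeq2 adjusted p = 0.0313). The cutoff of 3 cpm was chosen after seeing the data. PMAIP1 averaged 2.80 normalized counts in sgCtrl and 14.6 in sgN6AMT1, so it passed that cutoff through the sgN6AMT1 libraries. The default filter removed PMAIP1 because 2 libraries, both sgN6AMT1, exceeded 10.95 cpm where 3 were needed. Of 13 other fits 12 called PMAIP1, and the exception was the fit without sgCtrl replicate 2, at 1.89 (edgeR adjusted p = 0.0512). The size rested on few control reads: without sgCtrl replicate 3, which held 5 of the 7 control reads, the log2 fold change was 3.45.

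BCL2L11, which encodes BIM, a BH3-only protein that binds all anti-apoptotic members and can activate BAX directly, went the other way. It had 12.1, 11.5 and 8.25 normalized counts in sgCtrl and 2.11, 2.74 and 2.83 in sgN6AMT1, from 9, 10 and 7 against 2, 15 and 11 reads. The conditions did not overlap, with the lowest control above the highest depleted library. That separation rested on few reads, 7 to 10 in the control libraries and 2 in sgN6AMT1 replicate 1. Without a filter the log2 fold change of BCL2L11 was -1.95 (SE 0.56, edgeR adjusted p = 0.0106), with a mean of at least 3 cpm it was -1.97 (edgeR adjusted p = 0.0159), and with DESeq2 it was -2.02 (DESeq2 adjusted p = 0.0333). BCL2L11 averaged 10.6 normalized counts in sgCtrl and 2.56 in sgN6AMT1, so it passed the cutoff of 3 cpm through the sgCtrl libraries. Of 13 other fits 9 called BCL2L11. The call was lost after thinning all libraries to 742470 counts, at -1.43 (edgeR adjusted p = 0.194), and without sgCtrl replicate 1, without sgCtrl replicate 2 or without sgN6AMT1 replicate 2, at -1.86, -1.89 and -1.97. An antisense transcript, MIR4435-2HG, overlaps 10.8% of the exon bases of BCL2L11, and how strand was used in counting was not given in the sources used here.

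BAD encodes the BH3-only protein that binds BCL2 and BCL-XL when survival kinases leave it unphosphorylated. It had 4.03, 8.08 and 5.89 normalized counts in sgCtrl and 16.9, 12.8 and 20.3 in sgN6AMT1, from 3, 7 and 5 against 16, 70 and 79 reads. No library of one condition reached into the range of the other. The log2 fold change of BAD was 1.43 (SE 0.42, edgeR adjusted p = 0.0383). It passed the filter only through the sgN6AMT1 libraries, none of the sgCtrl libraries being above 10.95 cpm, so that a tested BAD had to differ, and its call stands as a description. The direction held in all 14 other fits that could test it, at 1.13 to 1.70, and 7 of them called it. DESeq2 did not (adjusted p = 0.106), nor did the fit corrected for GC content and transcript length, at 1.13 (edgeR adjusted p = 0.0895), or the same with the replicate number as a block, nor those without any 1 of the 3 sgCtrl libraries or without sgN6AMT1 replicate 3. BAD shares 404 of 1708 exon bases with GPR137 on the opposite strand, and GPR137 was at -0.28 (edgeR adjusted p = 0.717).

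The remaining BH3-only genes gave no call. BID, whose protein is cut by caspase-8 and links death receptors to mitochondria, ranged from 41.5 to 50.7 normalized counts in sgCtrl and from 49.5 to 54.5 in sgN6AMT1. Its log2 fold change was 0.24 (95% confidence interval -0.20 to 0.68, edgeR adjusted p = 0.512), and the conditions overlapped. BBC3, which encodes PUMA, had 8.06, 2.31 and 8.25 normalized counts in sgCtrl and 2.11, 5.29 and 3.60 in sgN6AMT1. Its ranges overlapped too, with a log2 fold change of -0.55 without a filter (SE 0.59, edgeR adjusted p = 0.675), which leaves its direction open. Over the 5 BH3-only genes without a filter the median was 0.24, with a range of -1.95 to 2.28, so the median covers members far apart in both directions. All genes fitted without a filter had a median of 0.12.

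**Figure D2:**
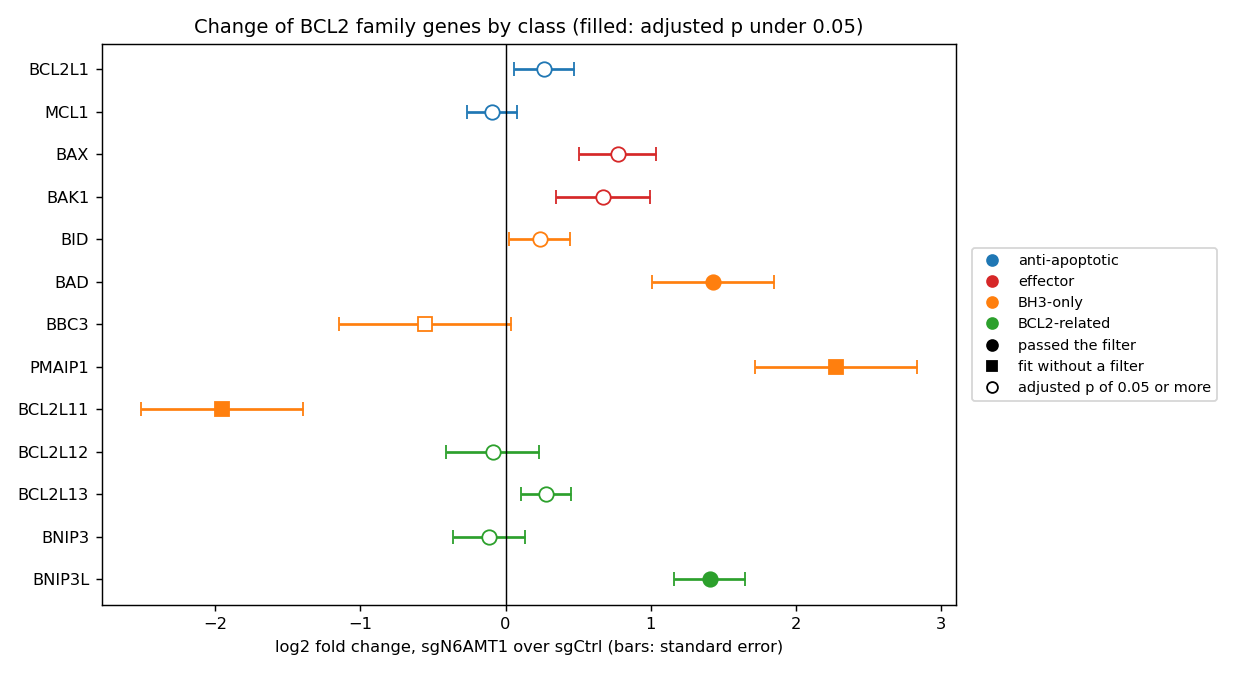
Log2 fold change of sgN6AMT1 over sgCtrl for 9 of the 10 members and 4 further BCL2 family genes, with bars of 1 standard error; filled symbols had an adjusted p under 0.05 in the fit drawn. Squares are genes from the fit without a filter. BCL2L11 stands at -1.95 and PMAIP1 at 2.28, both BH3-only, while BCL2L1 lies at 0.26 and MCL1 at -0.090.

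The effectors were both higher by point estimate, and neither passed the test. BAX had 24.2, 17.3 and 21.2 normalized counts in sgCtrl and 34.8, 37.6 and 33.9 in sgN6AMT1. The conditions did not overlap, and all 3 sgN6AMT1 libraries agreed closely. Its log2 fold change was 0.77 (SE 0.27, edgeR adjusted p = 0.0710), it was positive in 16 of 16 other fits at 0.52 to 0.92, and none of the 16 called it, with the adjusted p between 0.0554 and 0.266. BAK1 had 21.5, 12.7 and 17.7 normalized counts in sgCtrl and 20.0, 23.7 and 35.5 in sgN6AMT1. Here the ranges overlapped, with sgN6AMT1 replicate 1 inside the control range and replicates 2 and 3 above it, and the log2 fold change was 0.67 (95% confidence interval -0.0093 to 1.35, edgeR adjusted p = 0.197). Without sgN6AMT1 replicate 3 it was 0.39 (edgeR adjusted p = 0.582). BAK1 has processed pseudogenes, BAK1P1 and BAK1P2, with which reads can be shared. With BAX and BAD, 2 of the 6 tested members did not overlap between the conditions, where 29.2% of all genes tested did not. Of these, BAD had passed the filter only through the sgN6AMT1 libraries.

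The anti-apoptotic genes with enough counts showed no call. MCL1, the short-lived protein that NOXA binds, ranged from 91.1 to 99.4 normalized counts in sgCtrl and from 79.95 to 95.6 in sgN6AMT1, with a log2 fold change of -0.090 (95% confidence interval -0.45 to 0.27, edgeR adjusted p = 0.790). BCL2L1, which encodes BCL-XL, ranged from 48.3 to 60.5 in sgCtrl and from 55.8 to 73.8 in sgN6AMT1, with a log2 fold change of 0.26 (95% confidence interval -0.17 to 0.70, edgeR adjusted p = 0.445). The intervals leave room for a modest change of either gene. An antisense RNA, ABALON, covers 41.3% of the exon bases of BCL2L1. BCL2 had 3, 0 and 0 reads in sgCtrl and 1, 9 and 4 in sgN6AMT1, too few in sgCtrl for a fold change to be given.

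Levels were compared between genes per kb of the representative transcript. In sgCtrl the order of normalized counts per kb was BAX 26.3 ± 4.34 (SD, n = 3), MCL1 24.1 ± 1.05, BCL2L1 20.8 ± 2.42 and BID 20.7 ± 2.26, then BAK1 7.97 ± 2.04, BAD 6.46 ± 2.18, BBC3 3.36 ± 1.83, BCL2L11 2.08 ± 0.407, PMAIP1 1.47 ± 1.41 and BCL2 0.195 ± 0.338. Neighbors in that order overlapped over their libraries, except that BID lay above BAK1 and PMAIP1 above BCL2. The order turned on the length used. With all annotated exon bases as the length, an alternative chosen after seeing the data, BAX was at 8.08 ± 1.33, below MCL1 at 15.3 ± 0.667, BCL2L1 at 12.8 ± 1.49 and BID at 10.2 ± 1.11, and the lower 6 genes kept their places. In sgN6AMT1, per kb of the representative transcript, the level of PMAIP1 was 7.68 ± 1.67 (rank 7 of 10, from 9) and that of BCL2L11 was 0.502 ± 0.077 (rank 9, from 8). Both genes took the same ranks with all exon bases as the length. BAX was at 44.6 ± 2.41 per kb of transcript and BAD at 17.9 ± 4.06, above BAK1 at 12.2 ± 3.72. With all exon bases BAX was at 13.7 ± 0.742, below BCL2L1 at 15.1 ± 2.21 and MCL1 at 14.4 ± 1.38, and BAD at 9.75 ± 2.21 was below BAK1 at 11.9 ± 3.65.

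Summed by class per kb, the anti-apoptotic genes gave 49.3, 43.2 and 42.95 in sgCtrl and 45.6, 47.99 and 49.1 in sgN6AMT1. The effectors gave 40.3, 27.6 and 34.8 against 52.97, 58.2 and 59.0, and the BH3-only genes 31.5, 31.9 and 38.8 against 51.3, 47.8 and 57.8. The anti-apoptotic sums overlapped between the conditions, and the sums of the other classes did not. The ratio of anti-apoptotic to effector plus BH3-only RNA was 0.685, 0.727 and 0.583 in sgCtrl and 0.437, 0.453 and 0.420 in sgN6AMT1. Its mean was 0.665 ± 0.074 against 0.437 ± 0.016 (SD, n = 3 each), so that the sgN6AMT1 mean was 0.656 of the sgCtrl mean. That quotient stayed between 0.618 and 0.688 when each library was left out in turn. It was 0.683 after thinning to equal depth and 0.649 with all exon bases as the length. The ratio was not computed with the correction for GC content and transcript length. With that correction the median log2 fold change of the genes tested was 0.019 for the anti-apoptotic class, 0.48 for the effectors and 0.65 for the BH3-only class. Without it these medians were 0.087, 0.72 and 0.83. BAX made up most of the effector sum per kb of representative transcript, while with all exon bases BAX and BAK1 were close in sgCtrl, at 8.08 and 7.82. In the BH3-only sum the mean of BAD was 6.46 in sgCtrl and 17.9 in sgN6AMT1, and that of PMAIP1 was 1.47 and 7.68. Both rested on few sgCtrl reads. BID was at 20.7 and 24.2, while BBC3 was lower, at 3.36 and 1.99, as was BCL2L11, at 2.08 and 0.502. BAX, which no fit called, was at 26.3 and 44.6. The ratio counts RNA without weighing the potency of each protein. No test is given for the ratio, since the genes were chosen with earlier results of these data known. The median log2 fold change was 0.087 for the 2 anti-apoptotic genes tested, 0.72 for the 2 effectors and 0.83 for the 2 BH3-only genes tested, beside 0.0087 for all genes tested. Those 2 BH3-only genes were BID and BAD, and BAD passed the filter only through the sgN6AMT1 libraries, so 0.83 stands as a description. Without a filter the median of all 5 BH3-only genes was 0.24, beside 0.12 for all genes fitted that way.

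**Figure D3:**
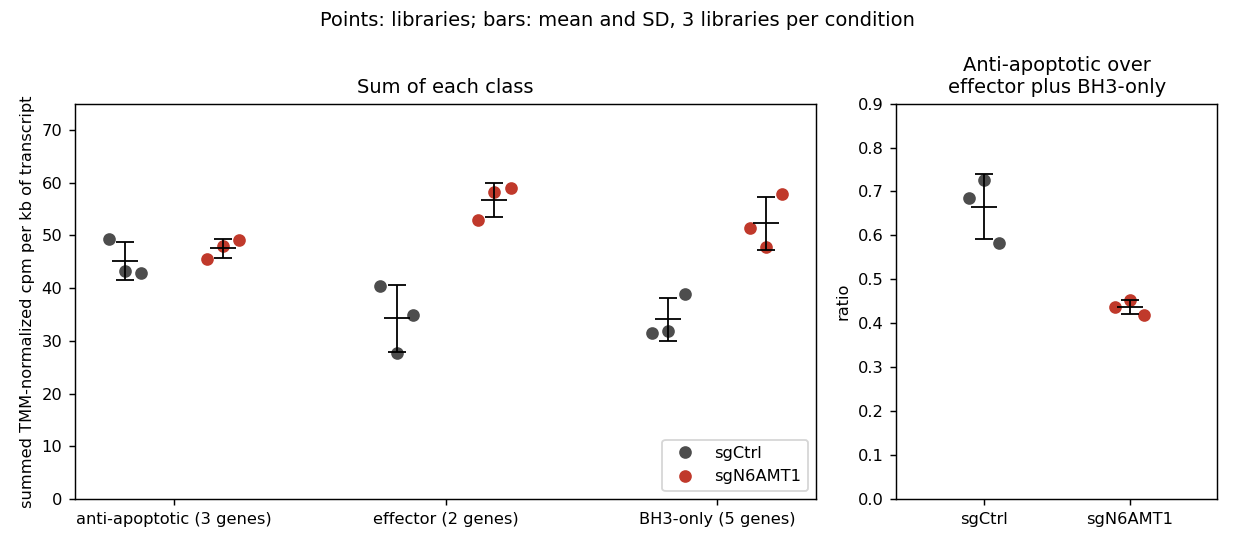
Left, TMM-normalized cpm per kb of transcript summed over the anti-apoptotic, effector and BH3-only genes in each library; right, the ratio of the anti-apoptotic sum to the other sums together. Points are libraries and bars the mean and SD (n = 3 per condition). The ratio lies at 0.583 to 0.727 in sgCtrl and at 0.420 to 0.453 in sgN6AMT1.

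The promoters of PMAIP1 and BCL2L11, the genes called in opposite directions with the largest changes, are given as context for those changes. The 250 bases before the RefSeq start of PMAIP1 (chr18:59899746-59899995, plus strand, GRCh38.p14) and of BCL2L11 (chr2:111120664-111120913, plus strand) lie outside annotated exons. Capitals mark the short core of the cAMP response element, CRE (TGACG, in capitals as CGTCA on the other strand), in PMAIP1 and a forkhead motif (TGTTTAC, in capitals as GTAAACA on the other strand) in BCL2L11.
PMAIP1: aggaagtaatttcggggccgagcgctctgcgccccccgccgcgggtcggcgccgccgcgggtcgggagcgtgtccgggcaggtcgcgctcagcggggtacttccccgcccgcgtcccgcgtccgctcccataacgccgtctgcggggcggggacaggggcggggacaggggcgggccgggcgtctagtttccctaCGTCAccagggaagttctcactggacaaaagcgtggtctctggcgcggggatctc
BCL2L11: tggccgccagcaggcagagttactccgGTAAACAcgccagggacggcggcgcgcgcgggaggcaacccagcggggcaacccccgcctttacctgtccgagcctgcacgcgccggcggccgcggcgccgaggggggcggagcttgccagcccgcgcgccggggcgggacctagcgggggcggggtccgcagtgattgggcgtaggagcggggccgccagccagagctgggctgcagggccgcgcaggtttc
On either strand, the CRE core was present in 21.2% and the forkhead motif in 2.98% of the 35116 promoter windows of this length, and a GC box (GGGCGG) was present in both genes and in 42.6% of windows. The CRE core was found in a window of BCL2, BCL2L1, BAX, BAD and PMAIP1. These were 5 of the 9 members with a window, called and not called. BCL2L1 and BAD had 2 windows each and BID had 5, so this count of genes cannot be set against the share of single windows. Factors of the ATF family bind the CRE and those of the FOXO family the forkhead motif, and PMAIP1 and BCL2L11 are known targets of ATF4 and FOXO3. ATF4 was at 0.32 (edgeR adjusted p = 0.165) and FOXO3 at 0.68 (edgeR adjusted p = 0.159), neither past the threshold, and both were picked for mention after their values were seen. A match is a description of letters and binding was not measured.

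Of the 13 further genes of the family, 4 passed the filter and 1, BNIP3L, was higher, where 5.09% of all genes tested were higher. BNIP3L encodes NIX, a receptor that marks mitochondria for mitophagy, most of all in maturing red cells. It had 22.8, 25.4 and 17.7 normalized counts in sgCtrl and 64.3, 53.5 and 59.4 in sgN6AMT1. The lowest sgN6AMT1 library was far above the highest control. The log2 fold change of BNIP3L was 1.41 (SE 0.25, edgeR adjusted p = 0.00197), and it was called in 16 of 16 other fits at 1.27 to 1.58. Its relative BNIP3, a mitophagy receptor induced by hypoxia, was at -0.11 (edgeR adjusted p = 0.817) and changed sign without sgCtrl replicate 3, at 0.22. BNIP3 has many processed pseudogenes, so its counts are uncertain. BCL2L13, a further mitophagy receptor, did not overlap between conditions, at 84.9 ± 5.10 against 103.7 ± 9.13 normalized counts (SD, n = 3 each), and its log2 fold change of 0.28 did not pass (edgeR adjusted p = 0.316). BCL2L12, which shares 25.9% of its exon bases with IRF3 on the opposite strand, was at -0.089 (edgeR adjusted p = 0.897) and was positive without sgCtrl replicate 1 and without sgN6AMT1 replicate 3, at 0.47 and 0.16. The other 9 genes did not pass. BCL2L2, which encodes BCL-W, had 105 reads in all. It shares 16.8% of its exon bases with BCL2L2-PABPN1 on the same strand, with which reads can be shared. BCL2A1, BCL2L10, BOK, BMF, BIK, HRK, BCL2L14 and BCL2L15 had at most 9 reads each over the 6 libraries.

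**Figure D4:**
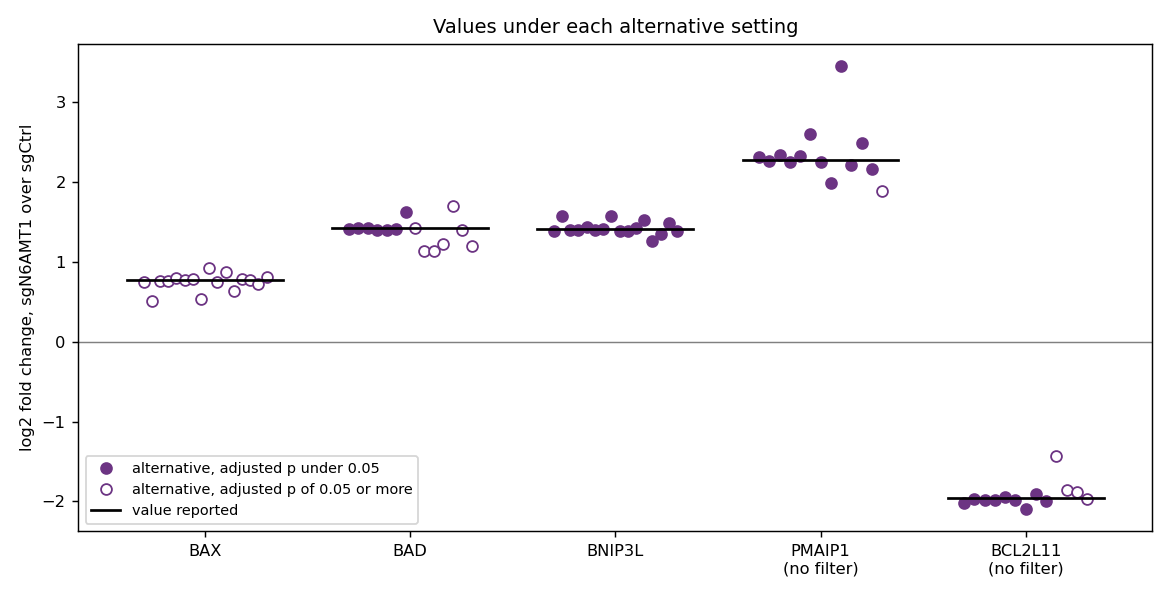
Log2 fold changes of the genes on which the results turn, under each alternative setting (points, filled where the adjusted p was under 0.05) and as reported (line). BNIP3L was called throughout and PMAIP1 in 12 of 13 settings, BAX stayed between 0.52 and 0.92 without a call, and BCL2L11 stayed negative.

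Genes that act on the members were listed with them. Of 29 regulators found in the count table, 23 were tested, 3 were higher and 1 was lower, with a median log2 fold change of -0.027. MYC and YWHAZ were also planned for the list and were not among these 29. Over all genes tested 5.09% were higher and 4.76% lower. Of the 23, 11 had an unadjusted p under 0.05 by edgeR, a level that 26.2% of all genes tested reached. STAT5A, a transcription factor that acts below BCR-ABL1 and drives BCL2L1, had 489.1, 385.3 and 413.8 normalized counts in sgCtrl and 207.6, 248.0 and 285.9 in sgN6AMT1. It was lower in every sgN6AMT1 library, with a log2 fold change of -0.79 (SE 0.16, edgeR adjusted p = 0.00486), and was called in 16 of 16 other fits. Its relative STAT5B overlapped between the conditions and was not called, at -0.12 (edgeR adjusted p = 0.672). PIM1, a STAT5 target and a kinase that phosphorylates BAD, had 133.0, 108.4 and 141.5 normalized counts in sgCtrl and 179.1, 284.4 and 285.4 in sgN6AMT1. It was higher in every sgN6AMT1 library. Its log2 fold change was 0.99 (SE 0.19, edgeR adjusted p = 0.00355), called in 16 of 16 other fits. VDAC2, the outer membrane channel that binds BAK1 and BAX, had 434.0, 452.2 and 557.6 normalized counts in sgCtrl and 722.9, 703.4 and 848.9 in sgN6AMT1. The log2 fold change of VDAC2 was 0.66 (SE 0.15, edgeR adjusted p = 0.0129), and its call was lost without sgCtrl replicate 1 and without sgCtrl replicate 2, at 0.58 and 0.60. TRIB3, a pseudokinase of the integrated stress response that binds AKT, was at 0.99 (SE 0.30, edgeR adjusted p = 0.0463), overlapped between the conditions and was called in 9 of 16 other fits, at an adjusted p of up to 0.234 without sgCtrl replicate 2.

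Downstream of the outer membrane, 14 of 17 genes were tested and 0 were called in either direction by edgeR, with 4 at an unadjusted p under 0.05, a level that 26.2% of all genes tested reached, and a median log2 fold change of 0.12. DESeq2 also called 0. The smallest p belonged to ENDOG, a mitochondrial nuclease, at 0.79 (edgeR adjusted p = 0.0606), which was called without a filter (edgeR adjusted p = 0.0437). CYCS, which encodes cytochrome c, was next at -0.35 (edgeR adjusted p = 0.125), and both were without overlap between the conditions, in opposite directions. Among death receptors and their adaptors 8 of 10 genes were tested and 0 called by edgeR or DESeq2, with 1 at an unadjusted p under 0.05 (26.2% of all genes tested) and a median of 0.45. TNFRSF1A, the receptor of TNF, was at 0.53 (edgeR adjusted p = 0.149), and FADD, the adaptor that recruits caspase-8, at 0.73 (edgeR adjusted p = 0.202).

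**Figure D5:**
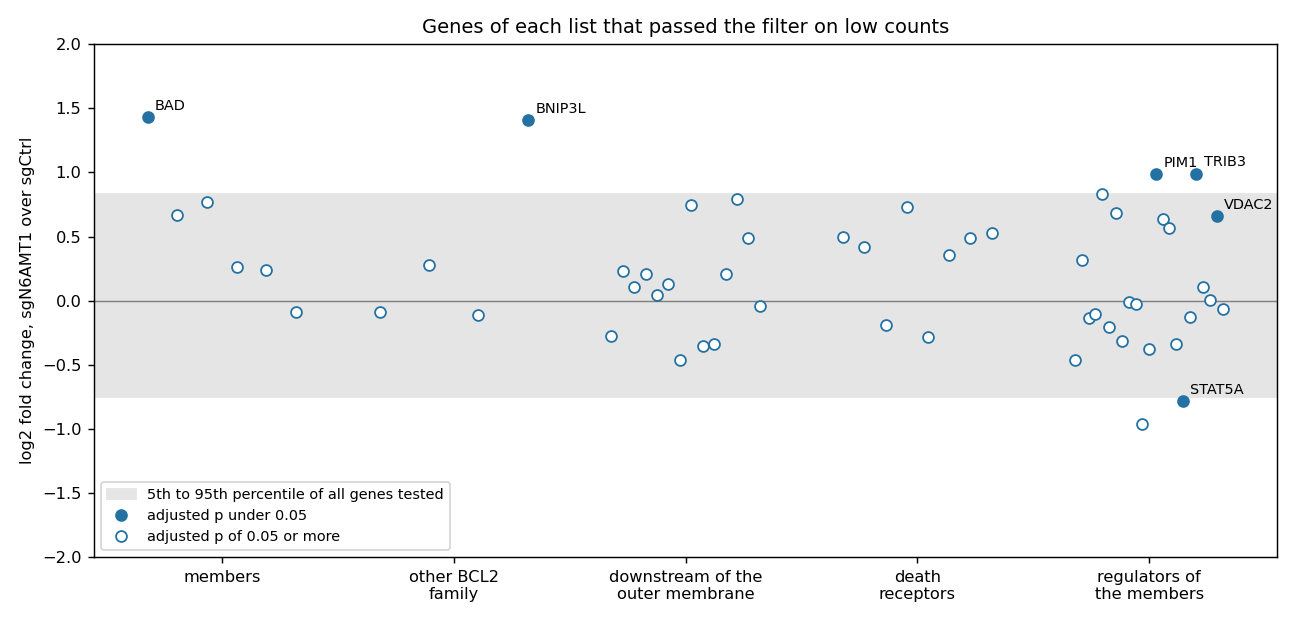
Log2 fold change of sgN6AMT1 over sgCtrl for the genes of each list that passed the filter on low counts, with genes in alphabetical order within a list. Filled points had an adjusted p under 0.05, and the grey band spans the 5th to 95th percentile of all 8324 genes tested, -0.75 to 0.83. BAD, BNIP3L, PIM1, TRIB3, VDAC2 and STAT5A are the filled points, and 0 of the genes downstream of the outer membrane or of the death receptors are filled.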

How the data were processed

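RNA was purified from cleared lysates, and libraries were made with a stranded total RNA kit after rRNA depletion, although the labels name polyA RNA as the molecule. The authors trimmed reads with cutadapt (minimum length 15, quality cutoff 2), mapped them with HISAT2 to GRCh38 and overlapped them with the release 84 annotation, and they deposited raw read counts per gene, not normalized. The strand setting of the counting was not given in the sources used here. Conditions and replicate numbers come from the sample labels, and column names carry the same numbers.

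Counts were filtered (filterByExpr), scaled by TMM factors and fitted with the quasi-likelihood model of edgeR 4.0.16 in R 4.3.3 (glmQLFit, glmQLFTest, two-sided) over the 6 libraries without covariates, with Benjamini-Hochberg adjustment over the 8324 genes tested at a threshold of 0.05. The common biological coefficient of variation was 0.16. Genes below the filter were read from the same fit without it (13874 genes). Alternatives were DESeq2 1.42.0, RLE size factors, total counts, TMM without mt-DNA-encoded genes, no filter, at least 10 counts in every library, a replicate block, correction for transcript GC content and length, thinning to 742470 counts, and each library left out. Chosen after seeing the data were the same alternatives without a filter, a mean of at least 3 cpm, and all annotated exon bases as length. The fit was tested on simulated counts. A count of 0 was read as allowing 3 counts, which covers counting error only. Symbols matched GENCODE v44 (18825 of 19330 genes, 868 by an older symbol), whose representative transcripts gave lengths and coordinates; promoters are from RefSeq (9 of the 10 genes). P-values measure the spread between these libraries, which may in part be technical.

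The members and gene lists were chosen with earlier results of these data known, so no p-value is given over a list. Named are every member, every tested gene of the wider family, each gene called in the lists of downstream genes, death receptors and regulators or else the 2 with the smallest p, the target, and the K562 markers called. STAT5B is named beside its relative STAT5A.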

Additional observations from a re-analysis of the deposited data

How the results depend on the processing

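The call of BAD and the counts of members called were the least stable results. Against 1 member called of those that passed the filter, DESeq2 called 2, no filter 3, and at least 10 counts in every library, the GC content and length correction (with and without the replicate block) and thinning each called 0, as BAD was then untested or no longer under the threshold. Leaving out 1 library gave 0 to 2. Over all genes the count of 820 was 1356 under the block with the GC correction and 220 to 951 when 1 library was left out. The BH3-only median of 0.83 was 0.26 with at least 10 counts in every library and 0.33 after thinning, where BAD was not tested, and the anti-apoptotic median was 0.20 after thinning. Without a filter 1 of 17 downstream genes and 7 of 29 regulators were called, where 8.66% of all genes were. The replicate block called 1 downstream gene, and without sgCtrl replicate 2 the regulators called were 2 (2 to 5 over the 6 libraries left out).

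The direction changed for MCL1 at 0.10 after thinning, for BCL2L12 (-0.43 to 0.47 with 1 library left out) at 0.47 and 0.16 and for BNIP3 (-0.30 to 0.22 with 1 library left out) at 0.22, each far from the threshold. The cause was not tested. A gene's p-value also differed between the fits with and without a filter, as for BNIP3L (edgeR adjusted p = 1.9e-05 without, 0.00197 with), and the values of PMAIP1 and BCL2L11 with the condition-blind filter and DESeq2 are therefore given too.

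Replicate numbers are shared by the conditions, and the correlations of same-numbered deviations were -0.00052, 0.083 and 0.19. The value of 0.19, for replicate 3, was the largest of all pairs, while sgCtrl replicate 2 correlated best with sgN6AMT1 replicate 1 (0.14). Whether the numbers pair the samples cannot be told from these values, and the main fit, with 820 genes called, used no block. With the replicate block 1195 genes were called, BAD stayed called at 1.40 (edgeR adjusted p = 0.0323), and BAX was at 0.78 (edgeR adjusted p = 0.0615). Depth limits most of the family: sgCtrl libraries held 0 to 10 reads of BCL2, BAD, BBC3, PMAIP1 and BCL2L11.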
